A study of Mus musculus with 6 samples.

Results

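The PDZ-LIM genes Pdlim1, Pdlim2, Pdlim3, Pdlim4, Pdlim5 and Pdlim7, the non-muscle alpha-actinin genes Actn1 and Actn4, and the zyxin gene Zyx were examined in CD4 T cells treated with vasoactive intestinal peptide (VIP). They were picked by gene name among the non-control probes of the array, and the set as such was chosen by measured values, since the VIP-treated over untreated log2 ratios of these same arrays were known when it was drawn up. The 9 genes have 20 of the 41174 probes on the array, and 8 of the 9 are among the 19225 genes whose probes passed the filters on signal. Pdlim3 is the gene left out.

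VIP is a neuropeptide, and its receptors on lymphocytes signal through stimulatory G proteins and cyclic AMP. Resting splenic CD4 T cells with VIP were set against the same kind of cells without it on 6 Agilent 2-colour arrays, each holding a VIP-treated sample and an untreated one, labelled as 6 biological replicates. All samples came from C57BL/6J mice of both sexes aged 6 to 32 weeks, with 5 to 10 spleens pooled per sample and cells taken up with beads against CD4. The VIP-treated sample carried Cy5 on replicates 1, 3 and 5, while on replicates 2, 4 and 6 it had Cy3. No dose or duration of the treatment is given in the sources used here.

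PDZ-LIM proteins pair a PDZ domain, which holds on to alpha-actinin, with LIM domains that bind kinases and transcription factors, so they place signalling proteins on actin filaments. Alpha-actinins crosslink actin filaments and tie them to integrin adhesions, and zyxin docks on alpha-actinin through its N-terminal part and brings VASP-family actin regulators to those sites. In T cells this machinery shapes the cell cortex, the contact with an antigen-presenting cell and crawling, and in mouse cells Pdlim2 also acts in the nucleus, where it promotes the degradation of Stat4 and of the p65 subunit of NF-kappaB.

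The sequences of the probes behind the lower values described below are shown because the pair for Pdlim4 gave different ratios. Both are placed on chromosome 11, minus strand, of mm9, per the file headers, at chr11:53868527-53868586 for A_51_P470432 (designed on NM_019417) and chr11:53872940-53872999 for A_52_P518305 (designed on the cDNA AK035513). The Actn1 probe A_51_P347862 (NM_134156) is placed on chromosome 12, minus strand, at chr12:81269446-81269882, a stretch of 437 bases for 60 probe bases, so its match is split by a gap. Exon and UTR annotation of mm9 was not used here. The probes are printed 5′ to 3′ in lower case, with no part marked:
Pdlim4 A_51_P470432: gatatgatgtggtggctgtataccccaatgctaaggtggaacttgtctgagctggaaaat
Pdlim4 A_52_P518305: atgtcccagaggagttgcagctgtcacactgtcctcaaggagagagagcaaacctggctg
Actn1 A_51_P347862: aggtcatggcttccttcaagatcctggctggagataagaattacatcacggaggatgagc

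The promoters of the genes called lower are shown because VIP receptors signal through cyclic AMP, and the cyclic AMP response element (CRE) is a known promoter motif of that pathway. RefSeq promoters on GRCm38.p6, from 250 bases before to 50 after the gene's start, were at hand for 8 of the 9 genes, the exception being Pdlim2. Both lie on the minus strand, at chr11:54068968-54069267 for Pdlim4 and chr12:80260314-80260613 for Actn1, and are printed 5′ to 3′ along the gene. Capitals mark matches on either strand to the CRE (TGACGTCA), its half-site (TGACG), the AP-1 motif (TGANTCA), the EGR motif (GCGNGGGCG) or the CArG box, the motif of serum response factor. GC boxes (GGGCGG) were searched too and left in lower case.
Pdlim4: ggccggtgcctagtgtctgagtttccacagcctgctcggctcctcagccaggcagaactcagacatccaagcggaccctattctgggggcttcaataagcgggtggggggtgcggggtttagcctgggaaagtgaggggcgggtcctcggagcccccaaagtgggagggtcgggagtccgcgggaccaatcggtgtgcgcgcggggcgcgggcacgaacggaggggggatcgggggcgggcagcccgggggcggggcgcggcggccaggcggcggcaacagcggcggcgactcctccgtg
Actn1: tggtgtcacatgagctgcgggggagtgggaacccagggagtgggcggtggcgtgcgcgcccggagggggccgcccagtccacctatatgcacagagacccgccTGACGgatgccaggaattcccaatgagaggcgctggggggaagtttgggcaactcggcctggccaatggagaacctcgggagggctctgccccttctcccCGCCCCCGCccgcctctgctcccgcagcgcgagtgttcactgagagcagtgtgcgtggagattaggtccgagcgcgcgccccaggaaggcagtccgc

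The Pdlim4 promoter held 3 GC boxes and no match to the other motifs. The Actn1 promoter held a CRE half-site from -147 to -143 relative to the start, an EGR match from -47 to -39 on the opposite strand and 4 GC boxes, and the EGR match overlaps a pair of them. Among all 32851 promoters of this length in the table, 20.8% held the half-site, 5.55% the EGR motif and 35.7% a GC box. A full CRE, present in 1.79% of all promoters, was found among these genes at Pdlim3 alone, from -48 to -41, and the half-site, which lies within the full CRE, was found at Pdlim3, Actn1 and Actn4. AP-1 matches (7.81% of all promoters) were found at Actn4 and Zyx, EGR matches at Actn1, Pdlim1 and Zyx, and no promoter of the set held a CArG box (1.63% of all). These matches describe letters and were not tied to binding.

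The median signal ran from 83.6 to 108 in Cy3 and from 148 to 235 in Cy5, and no spot of these genes was saturated. The scanner software marked 4 of their spots as outliers on replicate 2 and 2 on replicate 6, and these were left out. The T cell markers (Cd3e, Cd3d, Cd3g, Cd4, Lat, Tcf7 and Cd28) were well above background on 6 of 6 arrays in both treatments. The same held for all B cell, plasma cell, CD8 T cell and macrophage markers found on the array, so these flags do not show purity. The arrays of replicates 3 and 6 stood apart in sex-linked genes. The mean log2 ratio of Xist was -4.0 and 1.35 there, and that of the Y-linked gene Ddx3y 1.72 and -3.59. The cause was not tested. Values without these 2 arrays are given beside each call that they change and beside some of the other results.

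Each gene's log2 ratio, VIP-treated over untreated, was fitted with limma with a term for the dye, and calls were made at an adjusted p under 0.05 (Benjamini-Hochberg, over all genes). Of all 19225 genes, 593 (3.08%) were called, 330 higher (1.72%) and 263 lower (1.37%), and 3212 (16.7%) had an unadjusted p under 0.05. That split differed between settings. It was 210 higher and 98 lower after median centring, and 29 higher and 9 lower with the scanner software's processed signals. With slide as a fixed block it was 366 higher and 368 lower. Leaving out replicate 1 gave 295 called genes, leaving out replicate 5 gave 254 and leaving out replicate 6 gave 364. Of the 8 tested genes of the set, Pdlim4 and Actn1 were called lower and 0 were called higher. Because this contrast chose the set, nothing is read from that count, and the values below are descriptions with no p. The median log2 ratio of the 8 genes was -4.6e-05, beside -0.0047 over all genes, and 4 of the 8 lay below 0, beside 52.87% of all genes. In these bulk samples, fewer cells of a type and less RNA per cell cannot be told apart.

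**Figure D1:**
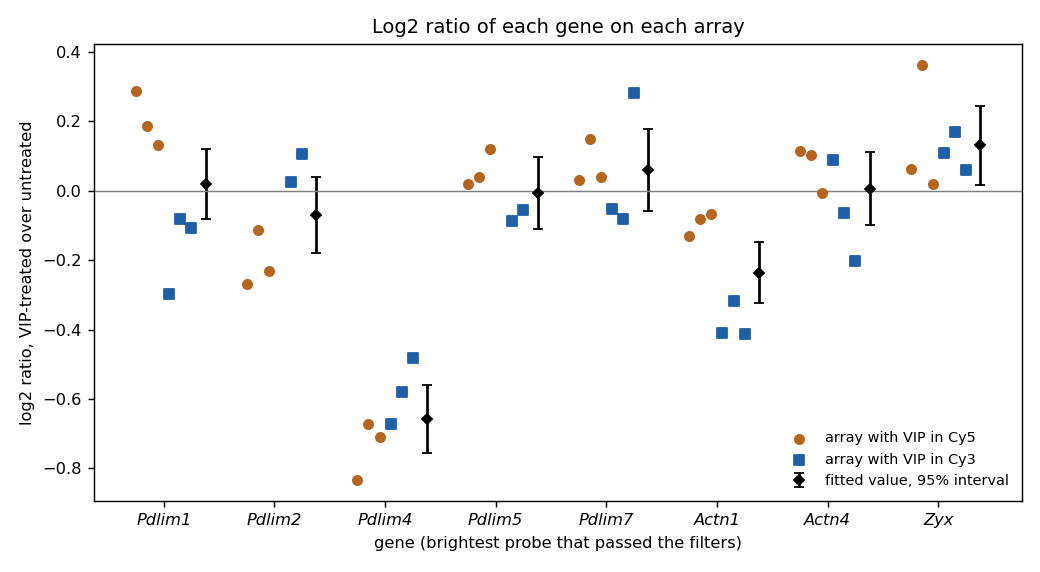
Log2 ratio of VIP-treated over untreated (y axis) on each array for the 8 tested genes (x axis), with circles for arrays with VIP in Cy5, squares for VIP in Cy3, and diamonds with bars for the fitted value and its 95% interval. Pdlim4 and Actn1 lie below 0 on every array, Zyx lies above 0 on every array, and the other genes have arrays on both sides.

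Pdlim4 encodes a PDZ-LIM protein, also known as RIL, that binds alpha-actinin and the tyrosine phosphatase encoded by Ptpn13. Its normalised log2 intensity had a lowest, median and highest value of 11.31, 11.85 and 12.29 in VIP-treated samples, against 12.14, 12.44 and 12.87 in untreated samples. The ranges overlap, but within each array the VIP-treated sample was the lower one. The log2 ratio was -0.83, -0.67 and -0.71 on replicates 1, 3 and 5, with VIP in Cy5, and -0.67, -0.58 and -0.48 on replicates 2, 4 and 6, with VIP in Cy3. Every array thus showed a lower Pdlim4 signal with VIP, whichever dye it carried. The fitted log2 ratio was -0.66 ± 0.044 (SE, n = 6 arrays, 95% interval -0.76 to -0.56), a 1.58-fold lower level, and 0.0624% of all genes had a lower ratio. The mean log2 ratios of the 3 slides, each of which carried 1 array of either dye orientation, were -0.75, -0.63 and -0.60. Without the arrays of unequal Xist the log2 ratio was -0.70.

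The other Pdlim4 probe, A_52_P518305, gave a smaller and less even difference. Its log2 intensity had a lowest, median and highest value of 8.12, 8.98 and 10.14 in VIP-treated samples, against 8.33, 9.43 and 10.29 in untreated samples. The log2 ratio was -0.81, -1.32 and -0.83 with VIP in Cy5, and 0.17, 0.39 and 0.73 with VIP in Cy3. The sign followed the dye, so the fitted value rests on cancelling a dye term of -0.71, whereas the dye term of A_51_P470432 was -0.08. Over 6 arrays the fit gave a log2 ratio of -0.28 ± 0.080 (SE, n = 6), with a 95% interval of -0.46 to -0.10. Fitted with each probe as a feature, it was not called, while A_51_P470432 and the Actn1 probe were called lower, beside 1.23% of all 27454 probes called lower and 1.65% called higher. With the mean of both probes, Pdlim4 stood at -0.47.

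Actn1 encodes alpha-actinin-1, which crosslinks actin filaments in non-muscle cells. Its log2 intensity had a lowest, median and highest value of 10.29, 10.65 and 11.08 in VIP-treated samples, against 10.38, 10.85 and 11.45 in untreated samples. The spread between replicates was wider than the difference between treatments, and the ranges overlap, while each array again had the lower value in its VIP-treated sample. The log2 ratio was -0.13, -0.08 and -0.07 with VIP in Cy5, and -0.41, -0.32 and -0.41 with VIP in Cy3. The size of the difference thus differed between dye orientations more than among arrays of one orientation. The fitted log2 ratio was -0.24 ± 0.040 (SE, n = 6, 95% interval -0.32 to -0.15), or 1.18-fold lower, and 1.73% of all genes had a lower ratio. The slides gave -0.27, -0.20 and -0.24. Actn1 was not called without replicate 1 (log2 ratio -0.23), without the arrays of unequal Xist (-0.23), with the processed signals (-0.25) or with median centring (-0.22).

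Platelets are rich in alpha-actinin-1 and can be carried through a spleen preparation, so their markers were set beside this value. All 7 platelet markers on the list were well above background on at least 1 array, and their summed background-subtracted signal ran from 1630 to 16800 in VIP-treated samples and from 1860 to 18200 in untreated samples. Of the 5 that were tested, 0 were called by limma, 1 had an unadjusted p under 0.05, and the log2 ratios lay between -0.12 and -0.01. Their part in the Actn1 value was not tested. No gene of the B cell, plasma cell, CD8 T cell, erythroid, macrophage, neutrophil, dendritic, NK or stromal and endothelial marker lists was called by limma either, and at an unadjusted p under 0.05 there was 1 gene in each of the CD8 T cell, plasma cell, macrophage and stromal and endothelial lists. Among the T cell markers 0 were called, and 2 had an unadjusted p under 0.05. These were Cd3d (-0.13) and Cd3g (-0.15), each lower on 6 of 6 arrays, while 3 of the 7 T cell markers lay below 0. All tested B cell (4), plasma cell (2) and erythroid (3) markers lay below 0. The same held for 0 of 2 CD8 T cell, 1 of 4 macrophage and 1 of 3 neutrophil markers. A part of cell composition in the values of the set was not tested.

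Actn4 encodes alpha-actinin-4, the other non-muscle alpha-actinin. Its log2 intensity had a lowest, median and highest value of 13.11, 13.44 and 14.74 in VIP-treated samples, against 13.17, 13.34 and 14.94 in untreated samples. Both highest values belong to replicate 6, and the groups overlap over nearly their whole range. Its fitted log2 ratio was 0.01 ± 0.047 (SE, n = 6), with a 95% interval of -0.10 to 0.11. The sign is not settled, since the value was -0.04 with median centring and -0.03 without replicate 2.

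Zyx encodes zyxin, a LIM protein of focal adhesions and stress fibres that binds alpha-actinin. Its log2 intensity had a lowest, median and highest value of 13.24, 13.64 and 13.89 in VIP-treated samples, against 13.22, 13.51 and 13.63 in untreated samples. The groups overlap, and each array had the higher value in its VIP-treated sample. The log2 ratio was 0.06, 0.36 and 0.02 with VIP in Cy5, and 0.11, 0.17 and 0.06 with VIP in Cy3, so that replicate 3 stood highest. The fitted value was 0.13 ± 0.051 (SE, n = 6, 95% interval 0.017 to 0.24), or 1.09-fold, and it was not called over all genes. The slides gave 0.09, 0.27 and 0.04, and without the arrays of unequal Xist, of which replicate 3 is one, the value was 0.09.

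**Figure D2:**
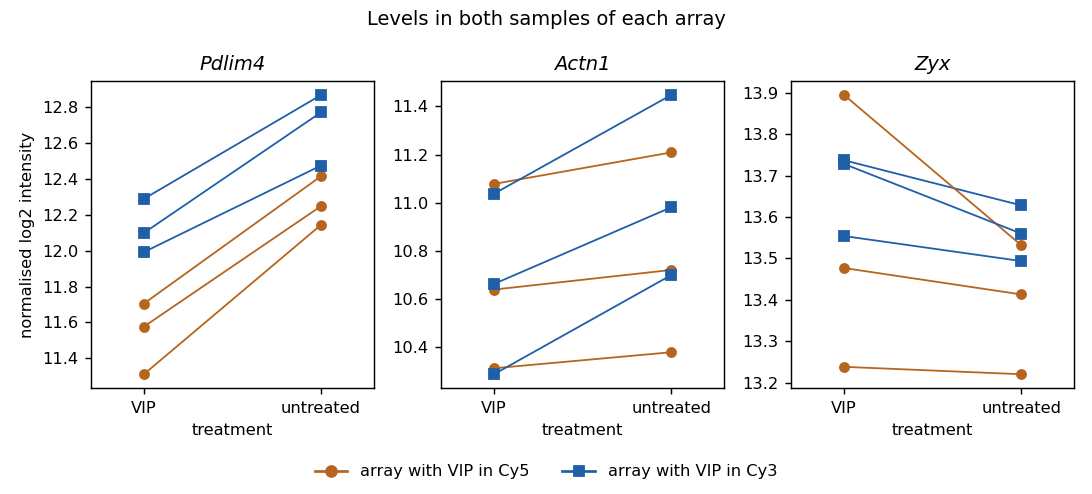
Normalised log2 intensity (y axis) of Pdlim4, Actn1 and Zyx in the VIP-treated and the untreated sample of each array (x axis), joined by a line per array, with circles for arrays with VIP in Cy5 and squares for VIP in Cy3. All 6 lines run upward to the untreated sample for Pdlim4 and Actn1 and downward for Zyx, while the ranges of the treatments overlap in each panel.

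Of the 6 genes of the set measured on all 6 arrays, 0 had treatment ranges that did not overlap. Among all 17202 genes measured on 6 arrays, 51 (0.296%) had separate ranges, 12 of them (0.0698%) with VIP lower. A ratio below 0 on 6 of 6 arrays was seen for Pdlim4 and Actn1, and for 545 of those 17202 genes (3.17%).

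Pdlim1 encodes a PDZ-LIM protein, also known as CLP36, that binds alpha-actinin. Of its 2 probes, A_51_P461138 (NM_016861, chr19:40296924-40296983) had the higher mean log2 intensity, but its spots on replicates 2 and 6 were marked as outliers. On the other 4 arrays its log2 ratio was 0.35, 0.26 and 0.19 with VIP in Cy5 and 0.02 on replicate 4, the only one left with VIP in Cy3. One array of that orientation is too few to separate treatment from dye, so this probe was not fitted. The value of the gene comes from A_52_P283426 (AK076285, chr19:40295838-40295897), whose log2 intensity had a lowest, median and highest value of 7.34, 7.47 and 7.70 in VIP-treated samples, against 7.27, 7.42 and 7.99 in untreated samples. Its log2 ratio was 0.29, 0.18 and 0.13 with VIP in Cy5 and -0.30, -0.08 and -0.11 with VIP in Cy3. The sign followed the dye on every array, and the fitted value was 0.02 ± 0.045 (SE, n = 6, 95% interval -0.08 to 0.12). With the outlier spots kept, an alternative chosen after seeing the data, A_51_P461138 stood for the gene and gave 0.08.

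Pdlim2, the nuclear member of the family described above, was measured on 5 arrays by A_51_P472726 (NM_145978, chr14:70564226-70564285), since the spot on replicate 2 was marked as an outlier. Its log2 intensity was 12.60, 12.90, 12.48, 12.57 and 12.83 in the VIP-treated samples of replicates 1, 3, 4, 5 and 6, against 12.86, 13.01, 12.46, 12.80 and 12.72 in the untreated samples of the same arrays. The VIP-treated sample was lower on the 3 arrays with VIP in Cy5 and higher on the other 2, and the groups overlap. The fitted log2 ratio was -0.07 ± 0.048 (SE, n = 5), with a 95% interval of -0.18 to 0.04, and it was -0.11 without the arrays of unequal Xist. The other probe, A_52_P264669, gave 0.01 ± 0.049 over 6 arrays.

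Pdlim5 encodes the protein known as ENH, which binds protein kinase C isoforms through its LIM domains. Its 5 probes fall into 2 transcript groups, those designed on NM_019808 (A_52_P662600 and A_51_P408881) and those designed on NM_019809 (A_52_P149438, A_52_P649177 and A_52_P339246). A_52_P662600 stands for the gene, and its log2 intensity was 10.04, 10.26, 9.40, 9.81 and 9.61 in the VIP-treated samples of replicates 1, 3, 4, 5 and 6, against 10.02, 10.22, 9.49, 9.69 and 9.67 in the untreated ones. The samples of an array lay close together, while arrays differed from each other by more. For this probe the fitted log2 ratio was -0.01 ± 0.046 (SE, n = 5, 95% interval -0.11 to 0.10). The other NM_019808 probe gave -0.03, and those of NM_019809 gave 0.09 and -0.01, while A_52_P339246 had only 4 arrays left and was not fitted. The 95% intervals of the 4 fitted probes all include 0, and a difference between the transcript groups was not tested.

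Pdlim7, also known as Enigma, encodes a PDZ-LIM protein first described as a partner of the insulin receptor, and it is measured by 4 probes. The one that stands for the gene, A_52_P21574 (NM_001114088, chr13:55600308-55600367), had a lowest, median and highest log2 intensity of 7.22, 7.49 and 7.63 in VIP-treated samples, against 7.28, 7.41 and 7.55 in untreated samples. The groups overlap, and replicate 6 had the largest ratio of its 6 arrays. The fitted log2 ratio was 0.06 ± 0.053 (SE, n = 6, 95% interval -0.06 to 0.18), and it was -0.02 without the arrays of unequal Xist. The other probes gave 0.05, 0.06 and 0.15. The highest of these, A_51_P515768, overlaps the positions of A_52_P21574 on the same strand and has an interval of 0.03 to 0.26, so probes that share bases gave log2 ratios of 0.15 and 0.06.

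Pdlim3 encodes the PDZ-LIM protein ALP, best known from the Z-discs of muscle. Each of its 2 probes was well above background on 0 of 6 arrays in both treatments. The background-subtracted signal of A_51_P157677 ran from 6.13 to 15.8 in VIP-treated samples and from 7.37 to 15.4 in untreated samples, and that of A_52_P579531 from 8.43 to 26.3 in VIP-treated samples and from 4.96 to 33.3 in untreated samples. The ranges overlap, and neither probe resolved a level. No ratio is given for this gene.

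**Figure D3:**
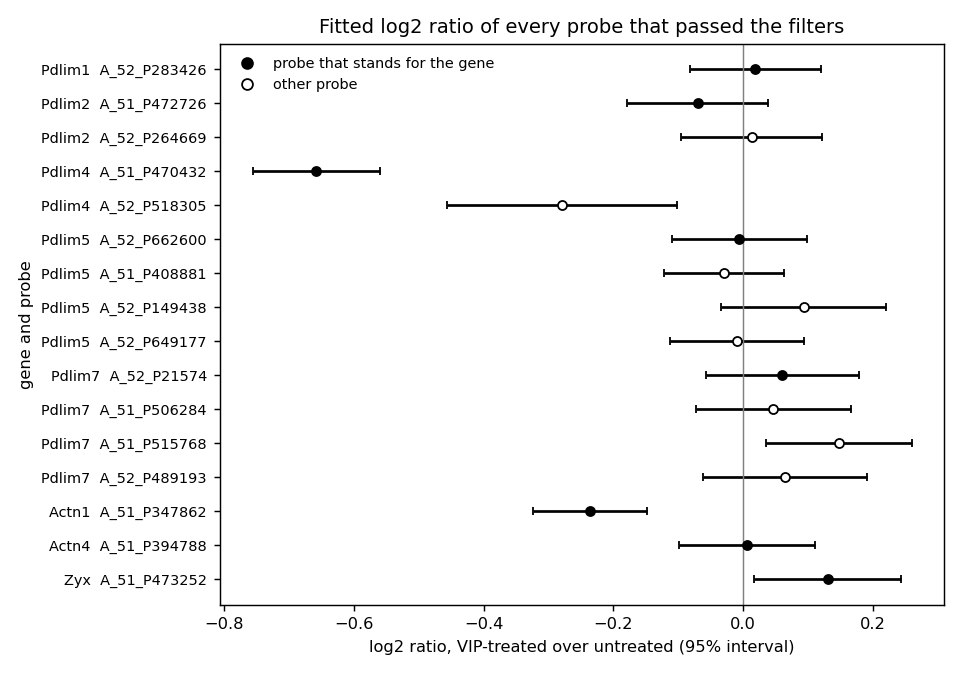
Fitted log2 ratio, VIP-treated over untreated, and its 95% interval (x axis) for each of the 16 fitted probes (y axis), with filled points for the probe that stands for the gene. The Pdlim4 probes stand at -0.66 and -0.28, and the probes of Pdlim2, Pdlim5 and Pdlim7 lie between -0.07 and 0.15.

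Genes whose 6 array ratios, dye effect included, lay nearest in value to those of Pdlim4 and Actn1 were sought among 12459 named genes by the root-mean-square difference of the log2 ratios. For Pdlim4 these were the collagen gene Col11a2 (difference 0.139, fitted log2 ratio -0.58), the nucleoside transporter gene Slc28a2 (0.214 and -0.46), Vps13b (0.228 and -0.52) and the zinc finger repressor gene Zbtb20 (0.241 and -0.68). For Actn1 they were the tyrosine kinase gene Tec (0.0581 and -0.25), the methyltransferase gene N6amt1 (0.064 and -0.19), Cep95 (0.0697 and -0.18) and the kinase gene Map3k15 (0.0781 and -0.18). Across the 6 arrays, Pearson's r was 0.372, 0.605, -0.015 and 0.046 between Pdlim4 and its 4 genes in that order, and from 0.93 to 0.98 for those of Actn1. The genes named for Pdlim4 thus share the size of its ratio, and Vps13b and Zbtb20 do not follow it from array to array. All these ratios come from the same 6 pairs of samples, and the genes were picked on them, so r is not evidence of shared regulation. The Actn1 ratios held a dye term of 0.14, which r does not separate from treatment.

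Further LIM domain proteins of actin structures had 30 tested genes, with a median log2 ratio of 0.03. Of these, 1 was called higher and 1 lower, beside 1.72% and 1.37% of all genes. Csrp1, whose product binds alpha-actinin and zyxin, rose by 0.23 ± 0.043 on the log2 scale (SE, n = 6, adjusted p = 0.0187 by limma), with the higher value in the VIP-treated sample on 4 of 6 arrays. Tgfb1i1, the gene of the paxillin relative Hic-5, fell by 0.20 ± 0.039 (SE, n = 6, adjusted p = 0.0202 by limma) on 6 of 6 arrays, and its other probes gave -0.05 and 0.06. Csrp1 was called under 6 of 18 alternatives (0.20 to 0.25) and Tgfb1i1 under 7 of 18 (-0.25 to -0.07). Both calls were lost with the processed signals (adjusted p = 0.141 for Csrp1 and 0.101 for Tgfb1i1 by limma) and the deposited table (0.139 and 0.0964). They were also lost with median centring (0.0878 and 0.113), with no dye term (0.296 and 0.0771), without the pairing and without the arrays of unequal Xist (0.0846 and 0.0906). The call of Csrp1 was further lost with an offset of 16 (adjusted p = 0.0527 by limma) and when replicate 1, 2, 3, 5 or 6 was left out. That of Tgfb1i1 was lost when replicate 1, 2, 5 or 6 was left out, and with the mean of its probes, which stood at -0.065.

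Among actin crosslinkers and adhesion plaque proteins, 31 genes were tested, and the median log2 ratio was 0.03. In this list 1 was called higher and 1 lower, beside 1.72% and 1.37% of all genes. Palld, the gene of the alpha-actinin partner palladin, rose by 0.26 ± 0.042 on the log2 scale (SE, n = 6, adjusted p = 0.0103 by limma) on 6 of 6 arrays. Its direction depends on the probe, since with the outlier spots kept a brighter probe stood for the gene and gave -0.14, and a dimmer one gave 0.07. The call was also lost with the mean of the kept probes (0.16, adjusted p = 0.0517 by limma), the processed signals (0.107), the deposited table (0.102) and without the arrays of unequal Xist (0.22, adjusted p = 0.0678). Sptbn1, the gene of the membrane skeleton protein beta-II spectrin, fell by 0.24 ± 0.050 (SE, n = 6, adjusted p = 0.0288 by limma), with lower values on 5 of 6 arrays. Its 4 other probes ran from -0.22 to -0.10, and it was called under only 5 of 18 alternatives (-0.27 to -0.17). The call was lost when replicate 2, 3, 4 or 5 was left out, without the arrays of unequal Xist (adjusted p = 0.0753 by limma), and with the processed signals (0.166), the deposited table (0.161), an offset of 16 (0.0659), median centring (0.0797), the mean of the probes (0.162), no dye term (0.346) and the outlier spots kept (0.0521).

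Of the named binding partners of PDZ-LIM proteins, 15 were tested, 3 were called higher and 0 lower, beside 1.72% and 1.37% of all genes, and the median log2 ratio was 0.05. Besides Palld these were the protein kinase C genes Prkca and Prkce, whose products are bound by Enigma-type proteins. Prkca had a log2 ratio of 0.84 ± 0.071 (SE, n = 6, adjusted p = 0.000212 by limma) and Prkce of 0.43 ± 0.062 (SE, n = 6, adjusted p = 0.00497 by limma), each higher on 6 of 6 arrays. The other probes of Prkce gave 0.09 and 0.15, and the mean of its probes 0.22. Its call was lost with the processed signals (adjusted p = 0.0954 by limma) and the deposited table (0.0897). Without the arrays of unequal Xist, Prkca stood at 0.97 and Prkce at 0.39, both still called. Stat4, a target of Pdlim2 in mouse T cells, stood at 0.05, Rela, the p65 gene, at 0.10, and Ptpn13, the partner of Pdlim4, at 0.18, and none of the 3 was called. At an unadjusted p under 0.05, 6 of the 15 passed, among them Prkcb with a log2 ratio of -0.17, beside 16.7% of all genes. The same count was 7 of 30 for the LIM domain list, 11 of 31 for the adhesion list and 6 of 23 for the MRTF-SRF pathway described next. Palld is counted in the adhesion list too. This list and the other gene lists here were drawn up with earlier results of these data known, so nothing is read from these counts.

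In the MRTF-SRF pathway, which reads the pool of free actin and drives many cytoskeletal genes, 23 genes were tested. Their median log2 ratio was 0.03, and 1 was called higher (Csrp1) and 1 lower, beside 1.72% and 1.37% of all genes. Myh9, the heavy chain gene of non-muscle myosin IIA, fell by 0.36 ± 0.060 on the log2 scale (SE, n = 6, adjusted p = 0.0109 by limma) on 6 of 6 arrays, and its other probe gave -0.17. The call was lost with the processed signals (-0.32, adjusted p = 0.115 by limma), the deposited table (0.109) and median centring (-0.43, adjusted p = 0.0533). Without the arrays of unequal Xist, Myh9 stood at -0.32 and was still called. Srf itself stood at -0.03 and Vcl, the vinculin gene, at 0.10, neither of them called.

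**Figure D4:**
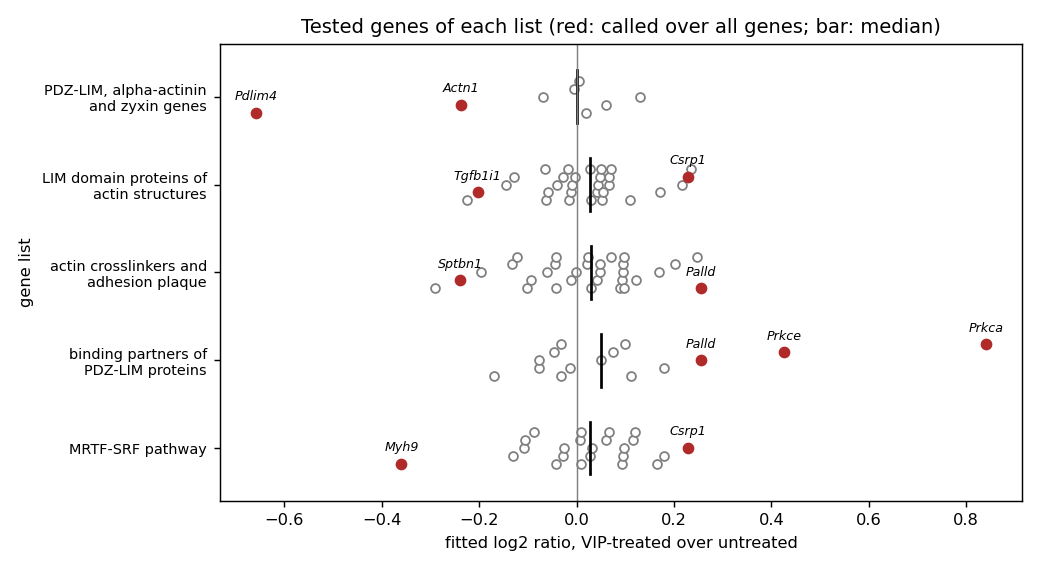
Fitted log2 ratio of VIP-treated over untreated (x axis) for the tested genes of each list (y axis), with filled red points for genes called over all genes and a bar at the median of each list. The medians lie between -4.6e-05 and 0.0508, and Pdlim4 at -0.66 and Prkca at 0.84 mark the ends.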

How the data were processed

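The authors deposited Agilent Feature Extraction 9.5.1.1 output with spot intensity values in Cy3 and Cy5, per the file headers, and a table of log10 ratios per spot, which matched the log10 ratios deposited in the scanner output with the sign turned on replicates 2, 4 and 6 (largest difference 4.8e-06). Alignment of probes is on mm9, per the file headers.

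From the mean signals and median backgrounds, normexp (offset 50) and loess within arrays were run in limma 3.58.1 (R 4.3.3), with control and outlier spots (1.93% to 8.96% per array) given no weight. Gene names were updated through RefSeq accessions, which matched 24844 of 41174 probes (60.3%). A probe was kept if well above background on at least 3 of 6 arrays in either treatment and measured on 2 or more arrays per dye orientation, and the probe of highest mean log2 intensity stood for its gene. Ratios were fitted with lmFit and eBayes with a dye term (4 residual and 6.54 prior degrees of freedom), 2-sided, with Benjamini-Hochberg adjustment over 19225 genes. Both samples of a replicate number share an array, so the fit is paired by array. This pairing does not show that both came from the same pool of cells, and on replicates 3 and 6 their sex-linked levels differed. Levels per sample were further scaled between arrays (Aquantile). Levels of different probes are not compared. Precision is limited by the number of arrays, and p-values measure the spread between samples that the labels number as biological replicates. The scripts were tested on simulated data.

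The genes of the set, the 4 neighbouring lists and the 11 marker lists were chosen with earlier results of these data known. Named were all 9 genes of the set, up to 4 called genes of each neighbouring list, and the 4 genes nearest to Pdlim4 and to Actn1 in their 6 ratios, leaving out Riken, clone and predicted names. Stat4, Rela, Ptpn13, Prkcb, Srf and Vcl are named outside that rule, for their roles and after their values were seen. Alternatives covered background correction, normalization, filters, probe choice, dye term, slide, pairing, the deposited table and omission of arrays. The processed signals and the deposited table gave the same log2 ratios for the tested genes of the set and the called genes of the lists. A call lost with both is thus not lost in separate data.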

Additional observations from a re-analysis of the deposited data

How the results depend on the processing

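Pdlim4 kept its direction under all 18 alternatives (-0.70 to -0.47) and its call under 17, and Actn1 kept its direction under all 18 (-0.25 to -0.22) and its call under 11. These alternatives rework the same arrays whose ratios chose the set, so a kept call is not independent support. Actn1 was no longer called with the processed signals (-0.25), median centring (-0.22), no dye term (-0.24), the deposited table (-0.25) or the 2 arrays of unequal Xist left out (-0.23), and leaving out 1 replicate gave -0.25 to -0.23, the call ending without replicate 1. Without the pairing, which drops the replicate block, neither Pdlim4 (-0.66) nor Actn1 (-0.24) was called, nor were the 7 called genes of the neighbouring lists, and 5 genes were called in all. The number of genes called was 38 with the processed signals, 371 with an offset of 16, 308 with median centring, 124 with no dye term, 41 with the deposited table and 369 without the arrays of unequal Xist, and leaving out 1 replicate gave 254 to 498. The cause of these shifts was not tested, except that omissions leave fewer samples. Of the genes that were not called, signs turned for Pdlim5 (0.0294 with median centring, 0.0116 with the mean of the kept probes, 0.00721 with no dye term, -0.0209 to 0.0040 over single omissions), Actn4 (-0.0441 with median centring, -0.0312 to 0.0415 over single omissions), Pdlim1 (-0.0026 to 0.0525 over single omissions) and Pdlim7 (-0.0168 without the arrays of unequal Xist). Palld turned to -0.14 with the outlier spots kept, where another probe stands for it. Zyx stayed between 0.08 and 0.16 and was called under 0 of the 18. Signal over background limits Pdlim3, and the dim probes of Pdlim1 and Pdlim7 bound what can be said of those genes.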
